A study of Rattus norvegicus with 42 samples.

Results

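Inhaled crystalline silica was compared with air in the lungs of rats that ate a high-fat diet, 3 months after the exposure ended. The comparison holds 10 of the 42 libraries of the series, 5 from silica rats and 5 from air rats, chosen by their diet, exposure and time labels and not by any measured value. All were male Fischer 344 rats (F344/DuCrl), bought at 3 months of age and fed a diet with 60% of its energy as fat from before the exposure until tissue was taken. The silica rats breathed 15 mg/m3 of silica with the whole body for 6 hours a day on 5 days, and the air rats breathed air. Total RNA came from a piece of lung, was depleted of ribosomal RNA and was made into stranded libraries. Rats on the regular diet (18% of energy as fat) at 3 months, 5 with silica and 4 in air, are used for comparison. So are high-fat rats at 9 months, 6 and 6. The 4 groups at 3 months were fitted together, so the regular-diet rats also enter the gene filter, the scaling and the estimate of spread. Each library is a different rat, so the spread given is between animals. The exposure was a single bout, so the groups show the lung after a recovery period and not during dosing, and a bulk library of tissue cannot tell fewer cells of a type from less RNA per cell.

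Crystalline silica particles that reach the alveoli are taken up by alveolar macrophages and are cleared slowly. Injured macrophages and epithelium release interleukins, chemokines and proteases, neutrophils and monocytes are recruited, alveolar type 2 cells multiply and make more surfactant, and scarring can follow. A diet rich in fat changes the lipid supply of macrophages and of the surfactant-making cells, and the series asks what part it plays in the toxicity of silica.

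Total counts ran from 5614899 to 8030105 in the silica rats and from 5499787 to 7395252 in the air rats, and did not differ by an exact two-sided permutation test (p = 0.452, n = 5 and 5, where 0.00794 is the smallest p the design allows). The counts on ribosomal RNA genes took 1.17% ± 0.26 (SD, n = 5) of the silica libraries and 0.957% ± 0.27 (n = 5) of the air libraries (exact permutation p = 0.214, adjusted over both tests 0.429). The markers of lung tissue were present in every rat: Sftpc, the surfactant protein made by alveolar type 2 cells, stood at 7225 CPM or more, and Ager, an alveolar type 1 marker, at 1208 CPM or more. Levels are given as CPM, the count relative to the library total after scaling for composition. The summed level of 9 tested heart muscle genes spread from 21.7 to 397 CPM in silica rats and from 29.9 to 420 CPM in air rats, so the tissue pieces differed in how much such muscle RNA they held, and no gene of that list was called between the groups.

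The promoters of 4 genes among those that rose are shown first because a sequence of the type bound by NF-kB, the transcription factor that drives many inflammatory genes, is written in each. Cxcl6, Cxcl1 and Cxcl2 encode chemokines that call in neutrophils, and Lcn2 encodes lipocalin-2, an iron-withholding antimicrobial protein. Each run is the 250 bases before the gene start, 5′ to 3′ on the strand of the gene, from RefSeq with its coordinates in build GRCr8, which is not the build of the counts. Capitals mark GGNATNTCC on either strand.
Cxcl6 (GRCr8 chr14:17596418-17596667, minus strand): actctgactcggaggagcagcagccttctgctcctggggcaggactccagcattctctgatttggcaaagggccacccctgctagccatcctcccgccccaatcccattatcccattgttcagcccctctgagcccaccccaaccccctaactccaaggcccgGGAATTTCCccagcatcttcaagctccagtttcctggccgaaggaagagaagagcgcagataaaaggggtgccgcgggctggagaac
Cxcl1 (GRCr8 chr14:17479322-17479571, minus strand): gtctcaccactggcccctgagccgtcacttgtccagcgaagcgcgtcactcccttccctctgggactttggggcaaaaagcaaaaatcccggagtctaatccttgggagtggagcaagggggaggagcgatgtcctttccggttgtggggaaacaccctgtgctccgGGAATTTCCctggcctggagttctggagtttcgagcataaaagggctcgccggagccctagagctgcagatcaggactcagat
Cxcl2 (GRCr8 chr14:17467256-17467505, minus strand): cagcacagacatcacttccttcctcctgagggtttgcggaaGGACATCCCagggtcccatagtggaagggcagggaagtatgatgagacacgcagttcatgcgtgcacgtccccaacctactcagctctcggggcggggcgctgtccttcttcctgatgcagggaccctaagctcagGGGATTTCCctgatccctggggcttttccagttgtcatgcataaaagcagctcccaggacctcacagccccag
Lcn2 (GRCr8 chr3:36081781-36082030, minus strand): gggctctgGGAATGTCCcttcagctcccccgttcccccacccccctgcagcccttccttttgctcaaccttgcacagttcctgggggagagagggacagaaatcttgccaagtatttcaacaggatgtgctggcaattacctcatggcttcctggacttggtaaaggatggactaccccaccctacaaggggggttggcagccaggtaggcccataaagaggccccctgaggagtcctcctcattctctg
Cxcl2 held 2 matches and the other 3 promoters 1 each, and the match of Cxcl1 began 83 bases before the start, that of Cxcl6 87 bases and that of Lcn2 242 bases. Of 33469 promoters in the table, 883 (2.64%) held the letters in this window. The share was 2.31% for the 10216 tested genes that had an entry and 2.30% for 868 genes called lower. It was 3.73% for the 1019 genes called higher with silica that had an entry. For the 165 of them that rose at least 2-fold it was 4.85%, or 8 genes, which include the 4 shown. The pattern was chosen after these 4 promoters had been read. Their matches, and the shares of the genes called higher that contain them, are therefore a description only.

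With the high-fat diet as the common background, silica changed 2653 of 15234 tested genes (17.4%) at an adjusted p below 0.05. Expression was higher for 1406 genes (9.23%) and lower for 1247 (8.19%). Rises were larger than falls: 236 of the genes called higher rose at least 2-fold, and 31 of those called lower fell by as much. Among the rises, 193 lay between 2-fold and 4-fold, 25 between 4-fold and 8-fold and 18 above that. Without air rat 3, 819 genes were called lower in place of 1247. All 5 silica rats lay above all 5 air rats for 1122 genes (7.37%), of which 1016 were called higher, and below them for 840 (5.51%), of which 702 were called lower. The median log2 fold change over all tested genes was -0.01. Adjusted p-values are Benjamini-Hochberg values of edgeR's quasi-likelihood test over all tested genes, and fold changes on the log2 scale are silica minus air with their standard error.

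**Figure D1:**
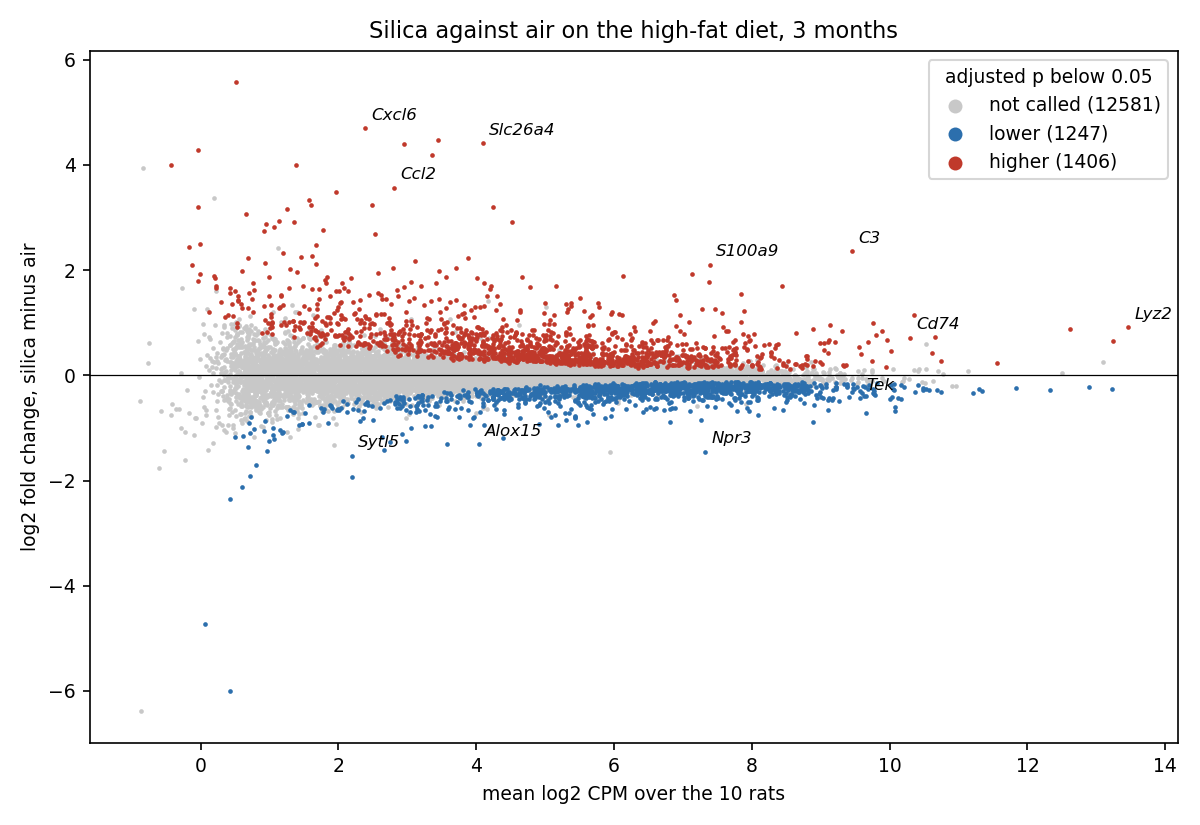
Each point is 1 of the 15234 tested genes, with its mean log2 CPM over the 10 rats on the horizontal axis and its log2 fold change (silica minus air) on the vertical axis. Red points (1406) were called higher, blue points (1247) lower and grey points neither, and the high red points have no blue counterpart of like size except for genes with few counts, whose fitted value is drawn.

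Neutrophil-attracting chemokines were among the strongest rises. Of 6 tested genes for these chemokines and their receptors, 4 rose and 0 fell, with a median log2 fold change of 1.31. Cxcl6 stood at 30.9, 20.7, 27.3, 13.04 and 33.2 CPM in the silica rats and at 0.680, 1.95, 0.364, 1.22 and 0.502 CPM in the air rats. The groups were far apart, with a rise of 26.0-fold (log2 4.70 ± 0.31, adjusted p = 5.2e-10). Cxcl1 was at 44.6, 57.6, 47.3, 48.9 and 43.7 CPM against 13.9, 14.6, 18.95, 10.8 and 8.70 CPM, again with no overlap (3.63-fold, log2 1.86 ± 0.17, adjusted p = 7.0e-08). Cxcl2 rose by 2.82 ± 0.29 on the log2 scale from a low level of 0.640 CPM, and Cxcl3 by 0.77 ± 0.08 from 689 CPM. The receptors of these ligands, Cxcr1 and Cxcr2, were not called (log2 0.40 and 0.36, adjusted p = 0.32 and 0.097).

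Monocyte-attracting chemokines rose beside them. Ccl2, the main ligand of the receptor on inflammatory monocytes, measured 28.5, 24.8, 18.3, 22.0 and 24.6 CPM with silica. In air it measured 0.680, 3.41, 1.46, 2.74 and 1.67 CPM, so that the highest air rat stayed below the lowest silica rat (11.9-fold, log2 3.57 ± 0.24, adjusted p = 7.4e-10). Of 21 tested genes in a list of CC chemokines and receptors that also holds the CX3C chemokine Cx3cl1, 8 rose and 0 fell. They included Ccl7 (log2 3.24 ± 0.30) and Ccl9 (1.99 ± 0.30), which also attract monocytes, Ccl3 (1.29 ± 0.17), and Cx3cl1 (0.77 ± 0.12), the membrane-bound ligand of patrolling monocytes. The eosinophil attractants Ccl11 and Ccl24 were not called (log2 0.18 and -0.74). Among 12 CXC genes outside the neutrophil group, Cxcl17 and Pf4 rose, and Cxcl9 (adjusted p = 0.056) and Cxcl10 (0.89), which interferon induces, were not called.

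Neutrophil genes did not move as a block. Of 10 tested markers 5 rose and 0 fell. Cd177, a neutrophil surface protein, stood at 34.5, 29.6, 31.1, 37.9 and 32.5 CPM in silica rats and at 1.09, 1.14, 1.46, 2.74 and 1.34 CPM in air rats (21.0-fold, log2 4.39 ± 0.19, adjusted p = 2.3e-13). S100a9, a calcium-binding protein of neutrophils and monocytes, was at 399, 373, 376, 307 and 332 CPM against 69.4, 135.2, 45.6, 87.2 and 78.7 CPM (4.29-fold). Neither gene overlapped between groups. S100a8 (log2 1.11 ± 0.20), the decoy receptor Il1r2 (1.66 ± 0.28) and Trem1 (1.16 ± 0.15) also rose. The granule genes Mmp8 (0.32, adjusted p = 0.22), Camp (0.05) and Ngp (-0.69) and the receptor Csf3r (0.26, adjusted p = 0.20) did not pass, and Elane, Mpo, Prtn3 and Ltf were too low to test.

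Genes of antimicrobial and acute-phase proteins rose widely, with 9 of 15 tested members of that list higher and 0 lower (median log2 0.87). Lcn2 was at 58.1, 38.5, 36.6, 36.6 and 47.5 CPM with silica and at 4.22, 2.11, 1.64, 1.83 and 1.67 CPM in air (18.2-fold, log2 4.18 ± 0.21, adjusted p = 5.8e-12). The highest air rat lay far below the lowest silica rat. Chi3l1, a chitinase-like protein, rose from 72.2 ± 5.2 to 274 ± 34 CPM (SD, n = 5 each), and lysozyme 2 (Lyz2), one of the most abundant transcripts of the tissue, from 8233 ± 205 to 15569 ± 2006 CPM. Ptx3 (log2 1.95 ± 0.22), which tags microbes for uptake, haptoglobin (Hp, 1.30 ± 0.12), the antibody transporter Pigr (1.14 ± 0.07) and Bpifb1 (2.23 ± 0.54) rose as well. Bpifa1 (0.87, adjusted p = 0.62), Wfdc2 (0.15) and ceruloplasmin (Cp, 0.07) were not called.

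An oxidant system of the airway surface was also higher. Pendrin (Slc26a4) carries thiocyanate and bicarbonate into the surface liquid, Duox1 makes hydrogen peroxide there, and lactoperoxidase (Lpo) joins both into an antimicrobial oxidant. Slc26a4 stood at 123, 76.6, 62.0, 69.7 and 68.0 CPM with silica and at 2.86, 3.41, 2.187, 6.55 and 3.35 CPM in air (21.4-fold, log2 4.42 ± 0.31, adjusted p = 1.2e-09). Silica rat 1 was well above the other 4, and no silica rat came near an air rat. Duox1 (log2 0.67 ± 0.17), Cftr (0.76 ± 0.13) and Slc26a9 (0.48 ± 0.10) rose by less. Lpo was at 7.24, 4.98, 6.35, 2.32 and 3.25 CPM against 0.136, 0, 0, 2.59 and 0 CPM, so 1 air rat reached into the silica range although the gene was called (log2 3.07 ± 0.55, adjusted p = 2.5e-04). Noxo1, which organises an epithelial NADPH oxidase, rose from 8.23 ± 1.1 to 62.8 ± 11.7 CPM (log2 2.92 ± 0.12).

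Complement genes rose in 14 of 23 tested cases and fell in 0 (median log2 0.53). C3, the central component of the cascade, was at 1675, 1578, 1481, 1599 and 1589 CPM with silica and at 365, 318, 282, 325 and 259.8 CPM in air. Its 5.11-fold rise (log2 2.35 ± 0.09) had the smallest adjusted p of all genes, 1.1e-13. The alternative-pathway protease Cfb rose from 612 ± 32 to 1226 ± 159 CPM (SD, n = 5 each). The 3 C1q chains C1qa, C1qb and C1qc rose by 0.83, 0.87 and 0.74, and the receptor C5ar1 by 0.81 ± 0.14. Regulators on the cell surface, Cd55, Cd59 and Cd46, lay between -0.06 and 0.07 and were not called.

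All 10 tested genes of class II antigen presentation rose (median log2 0.76). Cd74, the invariant chain, was at 1729, 1659, 1449, 1651 and 1571 CPM against 949, 1043, 966, 1013 and 941 CPM, with every silica rat above every air rat (log2 0.71 ± 0.07, adjusted p = 3.4e-07). RT1-Bb (0.92 ± 0.08), RT1-Da (0.80 ± 0.07) and RT1-Ba (0.79 ± 0.06) encode class II chains. Ifi30 (0.91 ± 0.08) and Ctss (0.67 ± 0.08) help to process antigen, and Ciita (0.55 ± 0.10) switches the set on. Of 12 tested dendritic cell markers 6 rose, among them Xcr1 (1.09 ± 0.25) and Clec9a (0.83 ± 0.16), while Ccr7, the receptor of migrating dendritic cells, was at -0.03. Of 12 B and plasma cell genes 4 rose (Mzb1, Sdc1, Derl3 and Fcer2) and Ms4a1 did not pass (0.38). Of 13 T and NK cell genes 0 rose and 0 fell, with a median of -0.15.

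Macrophage genes split by kind. Among 19 genes tied to lipid-laden macrophages, 15 rose and 0 fell (median log2 0.83). Mmp12, a macrophage elastase, was at 55.3, 53.3, 40.7, 49.7 and 47.6 CPM with silica and at 2.59, 2.60, 1.46, 2.59 and 1.51 CPM in air (22.3-fold, log2 4.48 ± 0.19, adjusted p = 2.2e-13). Gpnmb, a glycoprotein of lipid-loaded and lysosome-stressed macrophages, rose from 193 ± 16 to 628 ± 80 CPM (3.25-fold). Lgals3 (1.55 ± 0.11), Trem2 (1.20 ± 0.16), Msr1 (1.20 ± 0.10) and Fabp5 (1.14 ± 0.13) rose, and Apoe was not called (0.00 ± 0.09).

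Spp1, which encodes osteopontin, was uneven in both groups. It measured 29.6, 18.2, 10.6, 20.2 and 17.4 CPM with silica and 2.31, 0.325, 0.729, 4.87 and 1.34 CPM in air, so the groups did not overlap but each spread widely (9.40-fold, log2 3.23 ± 0.49, adjusted p = 6.9e-05). Retnla, made by macrophages in the alternatively activated state and by airway epithelium, was at 81.4, 60.6, 26.1, 75.4 and 56.3 CPM against 7.35, 3.57, 5.10, 9.59 and 6.36 CPM (9.13-fold). Silica rat 3 was the lowest silica rat for both genes. Arg1, the arginase of the same macrophage state, rose 2.83-fold and the chitinase Chia by 1.27 ± 0.26, whereas the receptor gene Il4r fell (-0.62 ± 0.11, adjusted p = 4.1e-04) and Mrc1 was not called (0.28, adjusted p = 0.079).

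Markers of resident alveolar macrophages rose in 7 of 12 cases, led by Atp6v0d2 (12.3 ± 2.3 against 1.07 ± 0.62 CPM, 11.1-fold), a proton pump subunit of these cells, Plet1 (1.43 ± 0.11) and Itgax (1.22 ± 0.10). The transcription factor Pparg that keeps their identity was at 0.08 and not called. Of 11 monocyte and interstitial macrophage genes 3 rose and 3 fell. The risers were Cd68 (1.21 ± 0.12), Itgam and Fcgr1a, and the fallers were Cd163 (-0.94 ± 0.18), F13a1 (-0.74 ± 0.19) and Lyve1 (-0.61 ± 0.09), all 3 found on perivascular or tissue-resident macrophages. Csf1r, which most macrophages carry, stayed at -0.01 ± 0.05. Lysosome genes rose in 18 of 25 cases, among them the cathepsins Ctsz (1.04 ± 0.08), Ctsh and Ctsd, and Ctsl alone fell (-0.27 ± 0.05).

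All 7 tested parts of the phagocyte oxidase rose, between 0.39 (Cybb) and 0.83 (Cyba), with a median log2 of 0.58. Of 24 oxidative stress genes 7 rose and 2 fell (1 without air rat 4, silica rat 2 or silica rat 4). Sod2, the mitochondrial superoxide dismutase that NF-kB induces, rose 2.41-fold, and Hmox1 2.39-fold. Nqo1 and Gclm were not called (0.13 and -0.14). Of 17 inflammasome and cytokine genes 8 rose, among them Csf2 (1.24 ± 0.19), which alveolar macrophages need, the interleukin 1 antagonist Il1rn (1.23 ± 0.20) and Il18 (0.60 ± 0.12). Il33 fell (-0.32 ± 0.07), Il1b (0.35, adjusted p = 0.073), Nlrp3 (0.30) and Il1a (-0.07) did not pass, and Tnf and Il6 were too low to test. Of 22 genes of the NF-kB and adhesion list 6 rose (Tnfaip2, Bcl3, Tlr2, Nfkbiz, Nfkbie and Nfkb2). Icam1 and Vcam1, the endothelial anchors of leukocytes, were at -0.12 and 0.08. Of 20 interferon response genes 0 rose and 2 fell (Bst2 and Irf9), where 8.19% of all tested genes were called lower. Their median log2 fold change was -0.15, with 2 of the 20 above 0. The falls numbered 1 without air rat 2, 3, 4 or 5 or silica rat 1 or 3, and without air rat 2 there was 1 rise.

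**Figure D2:**
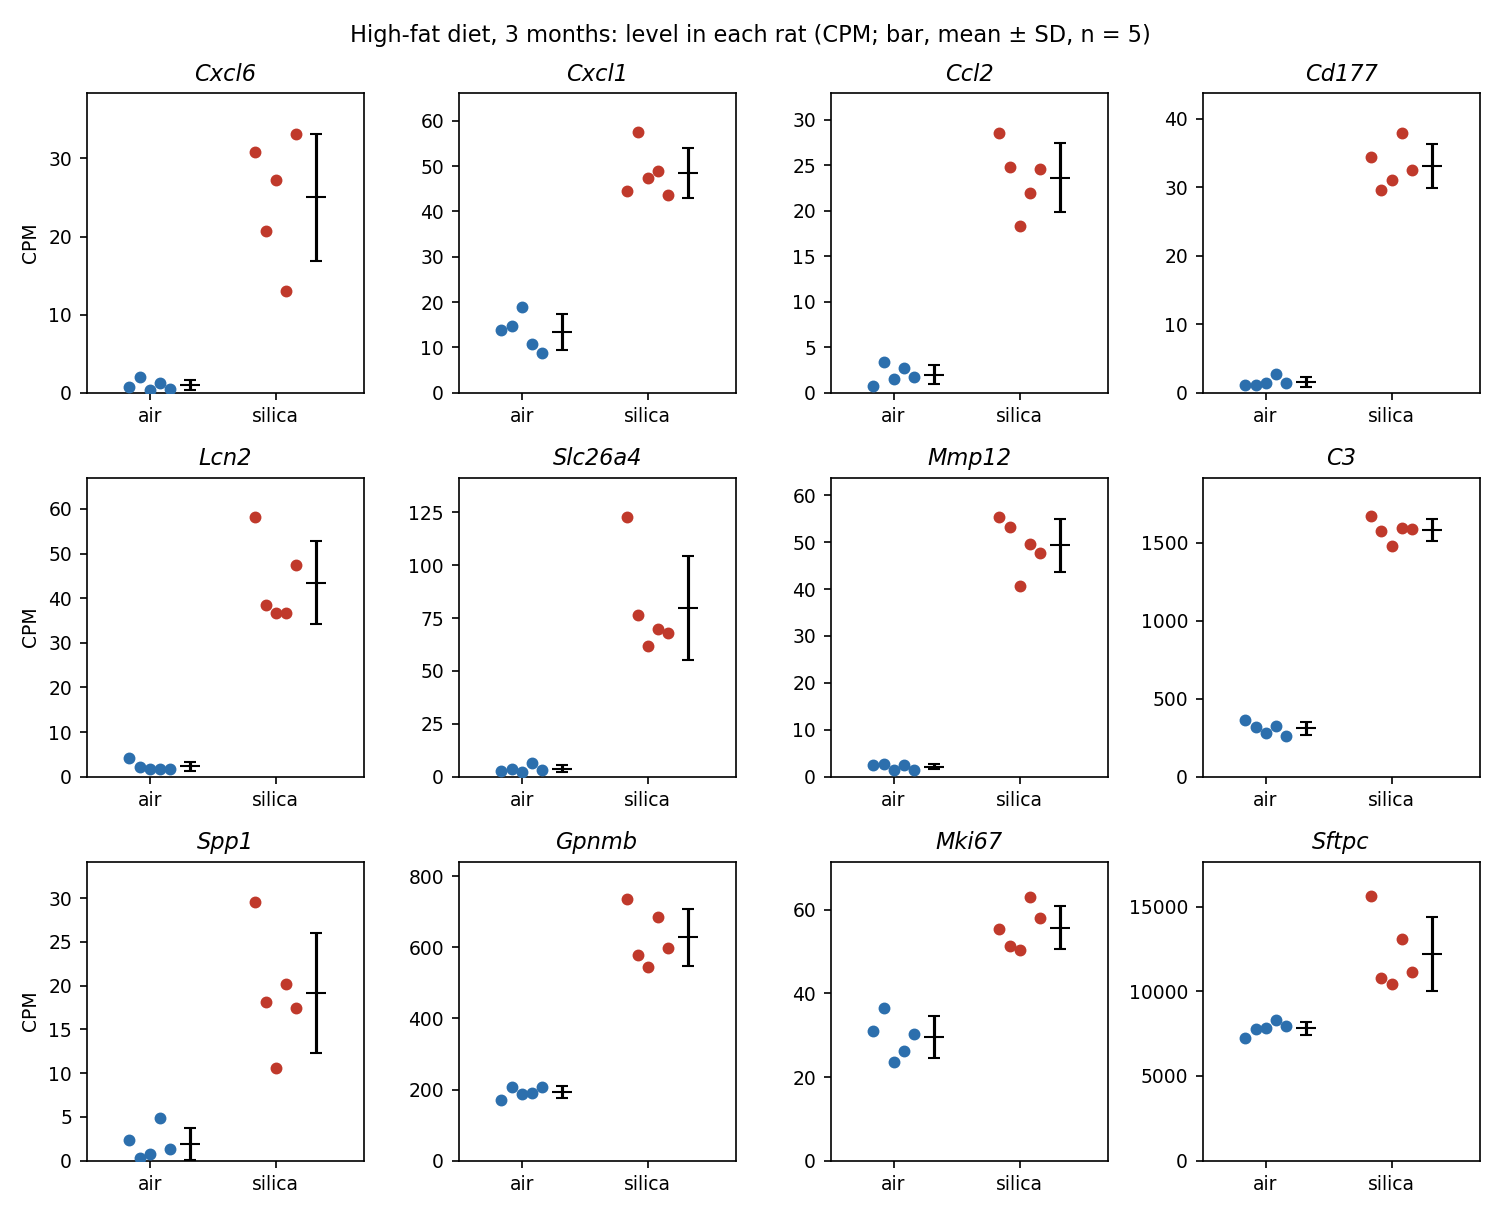
Each panel shows 1 gene, with CPM on a linear axis from 0, a point for each of the 5 air rats (blue) and 5 silica rats (red), and a black bar for mean ± SD. In all 12 genes every silica rat lies above every air rat, from 26.0-fold for Cxcl6 to 1.56-fold for Sftpc.

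The alveolar epithelium changed in opposite directions. Type 2 cells make surfactant and renew the lining, and 10 of their 12 markers rose while 0 fell (median log2 0.50). Sftpc was at 15639, 10771, 10424, 13079 and 11113 CPM with silica and at 7225, 7771, 7833, 8324 and 7929 CPM in air (1.56-fold, adjusted p = 5.5e-05). Silica rats 1 and 4 were the highest and the air rats varied little. Sftpa1 rose 1.83-fold, Lamp3 1.83-fold, Muc1 2.01-fold and Sftpd by 0.66 ± 0.10 on the log2 scale, and Sftpb (0.09 ± 0.08) and Etv5 (0.10 ± 0.10) did not pass. Type 1 cells form the thin gas-exchange surface, and 9 of their 12 markers fell with 0 rising (median log2 -0.26). The falls were small: Cav1, which endothelium also expresses, went from 1351 ± 51 to 984 ± 78 CPM, Rtkn2 fell by 0.37, Hopx by 0.32 and Ager by 0.28. Every silica rat lay below every air rat for Ager and Cav1.

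Markers of the conducting airway had few calls. Of 10 airway secretory genes 0 rose and 0 fell, and the club cell protein Scgb1a1 was at 1256 to 2312 CPM in silica rats and 1522 to 2743 CPM in air rats (log2 -0.21, adjusted p = 0.47). Of 9 ciliated cell genes only Tppp3 passed (-0.30 ± 0.08). Of 11 genes of injured or transitional epithelium 0 rose, and Krt7 and Krt8 fell (-0.35 and -0.22). Those falls numbered 1 without air rat 2, 4 or 5 or silica rat 2 or 5, and 1 rise was called without silica rat 3.

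Lipid genes rose with the surfactant genes. Of 17 genes of fatty acid synthesis 10 rose and 0 fell: Fasn, the fatty acid synthase, from 1261 ± 111.8 to 2084 ± 208 CPM, Dgat2, which finishes triglyceride synthesis, 1.67-fold, and the desaturase Scd 1.34-fold. Of 21 genes of cholesterol synthesis 9 rose and 0 fell, led by Dhcr7 (0.90 ± 0.14), Hsd17b7 (0.58 ± 0.16) and Sqle (0.56 ± 0.09). The regulator Srebf2 was not called (0.04). Of 13 genes of cholesterol export and oxysterols 7 rose, among them Ch25h (1.46 ± 0.24), Npc2 (0.66 ± 0.12) and Abcg1 (0.56 ± 0.10), and the exporter Abca1 was at 0.05. Of 26 fatty acid oxidation genes 5 were called higher and 3 lower, where 9.23% and 8.19% of all tested genes were. Their median log2 fold change was 0.09, with 20 of the 26 above 0. Without silica rat 1 the rises numbered 2, and those of cholesterol synthesis 6. The fallers included Pdk4 (-0.69 ± 0.20) and Ucp3 (-0.69 ± 0.23), both fasting-response genes.

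Cell division genes were higher, with 15 of 22 called up and 0 down (median log2 0.59). Mki67, present only in cycling cells, was at 55.4, 51.4, 50.4, 63.1 and 58.1 CPM against 31.0, 36.6, 23.7, 26.2 and 30.3 CPM (1.87-fold, adjusted p = 7.6e-07). Rrm2 (1.52 ± 0.31), Ccna2 (1.19 ± 0.23), Mcm5 (1.07 ± 0.15) and Top2a (0.78 ± 0.08) rose. Clspn, which helps stalled replication forks, went the other way, to 0.501 of its air level. Of 10 growth arrest genes of the p53 pathway 1 rose and 1 fell (0 without air rat 4 or silica rat 2), and Cdkn1a was at -0.21 (adjusted p = 0.47).

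Endothelial genes fell in 14 of 18 tested cases and rose in 0 (median log2 -0.32). Tek, the angiopoietin receptor, was at 619, 641, 761, 606 and 654 CPM with silica and at 928, 850.4, 862, 910.4 and 878 CPM in air, with no overlap (log2 -0.43 ± 0.06, adjusted p = 1.1e-05). Cldn5, the tight junction protein of vessels, fell to 0.631 of its air level and Sox17, a factor of arteries, to 0.675. Aqp1, the water channel of lung capillaries, fell from 648 ± 47 to 467 ± 42 CPM, and Nos3, which makes nitric oxide in endothelium, by 0.55 ± 0.11. The summed level of the 18 markers was 7728 to 9383 CPM in silica rats and 9682 to 10945 CPM in air rats. Without air rat 3, the falls numbered 9. Markers of type 1 cells and endothelium fell in the same rats in which the summed type 2 markers were at 25128 to 36402 CPM, against 18347 to 19743 CPM in air, and the part of this in the falls was not tested.

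Red cell transcripts fell too, in 7 of 9 tested members of a red cell and platelet list (median log2 -0.68). Alas2, the haem enzyme of immature red cells, was at 35.1, 24.02, 46.9, 30.0 and 30.1 CPM against 58.1, 58.5, 49.2, 58.0 and 61.4 CPM (log2 -0.77 ± 0.13, adjusted p = 2.0e-04). The globin gene Hbb fell from 1389 ± 113.7 to 869 ± 223 CPM. Silica rat 3 was closest to air for both. Globin copies are nearly identical, so their counts are not independent of each other. In the fit of all 8 groups, whose spread estimate includes the 9-month rats, the falls numbered 3.

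Fibroblast markers leaned lower, and matrix genes showed no common direction. Of 10 fibroblast markers 4 fell (Pdgfra, Tcf21, Inmt and Pdgfrb) and 0 rose, where 8.19% of all tested genes were called lower. Their median log2 fold change was -0.24, with 1 marker above 0. Without air rat 4 the falls numbered 2. Of 24 matrix and fibrosis genes 2 rose and 3 fell, with a median of -0.02 on the log2 scale, with 1 rise without air rat 4 or silica rat 1, 2 or 4 and 4 rises without air rat 2. The risers were Cthrc1, a marker of activated fibroblasts (1.07 ± 0.26, adjusted p = 0.0052), and Tgfbi (0.26 ± 0.08), and the fallers were Col4a1, Postn and Col6a1. Col1a1 was at 106, 132, 140.2, 89.3 and 128.9 CPM against 117.9, 98.5, 114.4, 90.0 and 77.5 CPM, overlapping between groups (log2 0.26 ± 0.13, adjusted p = 0.17). Of 16 metalloproteinase and inhibitor genes Mmp12, Mmp14 and Plaur rose and Timp3 and Plat fell. Smooth muscle and mesothelial lists had 0 calls.

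**Figure D3:**
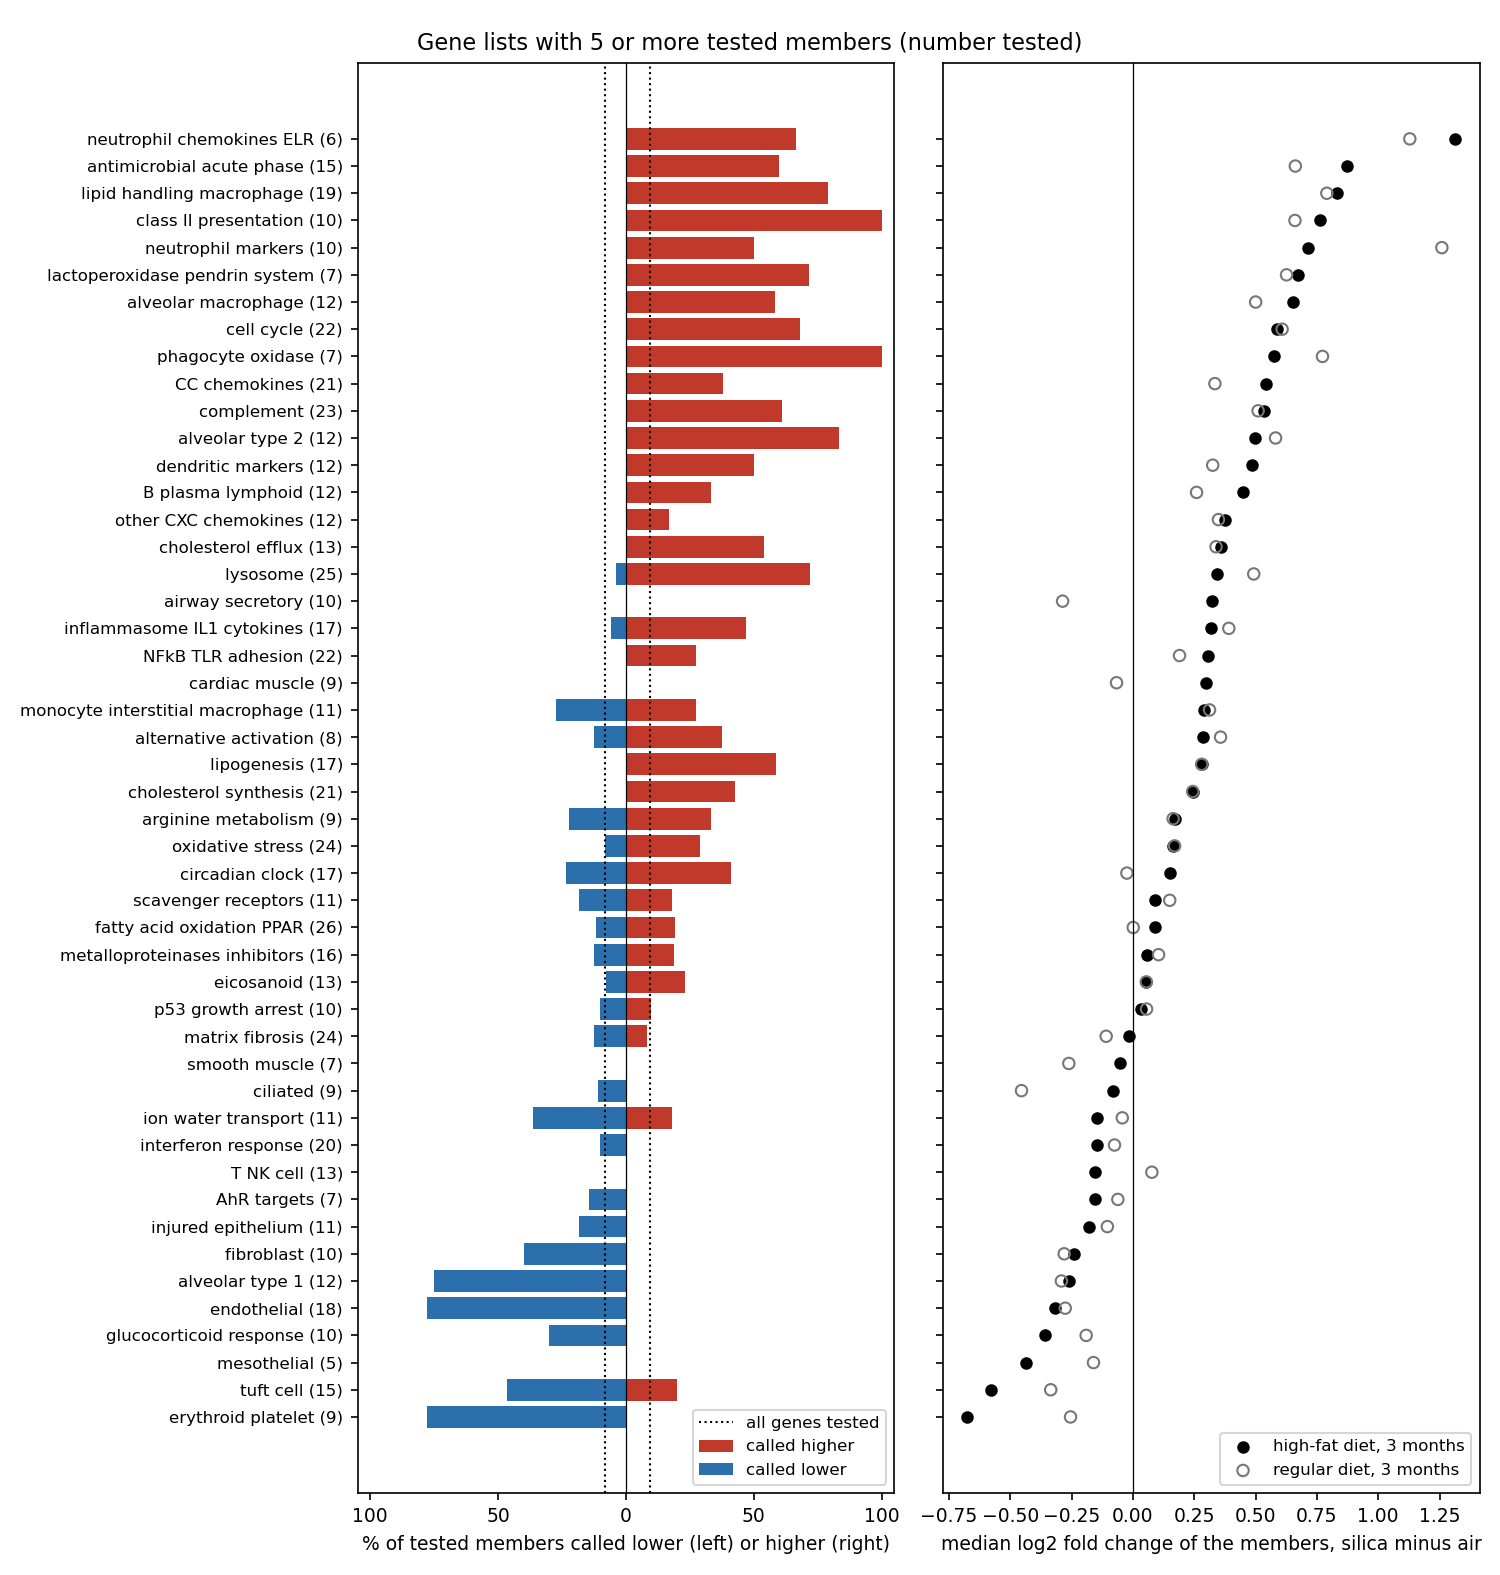
The left panel gives, for 48 gene lists with at least 5 tested members, the percentage of tested members called higher (red, right) or lower (blue, left), with dotted lines at the 9.23% and 8.19% of all tested genes. The right panel gives the median log2 fold change of the members on the high-fat diet (filled) and the regular diet (open) at 3 months, and class II presentation and the phagocyte oxidase reach 100% while airway secretory, T and NK cell, smooth muscle, heart muscle and mesothelial lists have no calls.

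The largest falls among genes with a mean log2 CPM of at least 1 had varied roles. Sytl5, a vesicle-trafficking protein, was at 2.21 to 2.68 CPM with silica and 5.02 to 10.4 CPM in air (log2 -1.53 ± 0.20). Npr3, the clearance receptor for natriuretic peptides, was at 94.7, 85.6, 83.9, 121.7 and 114.5 CPM against 365, 148, 355, 209.6 and 283 CPM (log2 -1.45 ± 0.18, adjusted p = 7.2e-06). The silica rats lay close together and the air rats were widely spread. Alox15, a lipoxygenase that makes lipid mediators, was at 11.8, 6.89, 12.9, 9.83 and 10.2 CPM against 21.2, 31.7, 24.6, 30.7 and 20.8 CPM (log2 -1.31 ± 0.16). Ass1, which rebuilds arginine from citrulline, was at 12.6, 14.5, 14.3, 12.3 and 14.5 CPM against 34.6, 30.9, 28.8, 36.4 and 26.3 CPM, with no overlap (log2 -1.20 ± 0.12, adjusted p = 1.9e-07). Mlc1 (-1.42 ± 0.26), Tesc (-1.27 ± 0.17), Tmem63c (-1.21 ± 0.32), Fam222a (-1.11 ± 0.27), Gp6 (-1.05 ± 0.29), Sptb (-0.97 ± 0.20) and Fam107a (-0.96 ± 0.19) completed the list. Tmem63c and Gp6 rested on few counts, 41 and 45 over all 5 silica rats. Dlk1, which encodes a Notch-related growth protein, held 2 counts over all 5 silica rats and was at 2.44 to 7.62 CPM in the air rats.

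Sh2d7, Gnat3 and Rgs13 among the largest falls are genes of tuft cells, the rare chemosensory cells of the airway. A list of 20 tuft cell genes was therefore drawn up after these values had been seen, and of 15 tested members 7 fell and 3 rose. Without the 3 genes that prompted the list, 4 of 12 fell and 3 rose, so the other members had no common direction. The fallers included Trpm5, the taste-type ion channel (12.8, 12.6, 13.2, 11.8 and 10.9 CPM against 25.5, 20.3, 27.0, 25.3 and 20.6 CPM), and Pou2f3, the factor that specifies these cells (0.983 against 2.75 CPM, log2 -1.43 ± 0.28, adjusted p = 0.0010). The risers included Plcb2 and Alox5ap, which leukocytes also express. Sh2d7, Gnat3, Trpm5 and Pou2f3 did not overlap between groups, and Rgs13 lost its call in 6 of the alternatives tried. Dclk1 and Il17rb, also on the list, were not called (-0.05 and -0.41).

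Clock genes moved in 11 of 17 cases, 7 up and 4 down. Dbp, an output of the clock, was at 16.4, 34.1, 30.5, 79.1 and 21.8 CPM with silica and at 10.9, 15.9, 13.5, 7.31 and 7.87 CPM in air (log2 1.69 ± 0.32, adjusted p = 6.4e-04). Its activator Arntl ran opposite, at 48.7, 36.9, 46.2, 17.0 and 53.8 CPM against 60.7, 57.8, 55.2, 69.7 and 66.1 CPM (log2 -0.60 ± 0.16). Silica rat 4 had both the highest Dbp and the lowest Arntl. Per2 (0.76 ± 0.17) and Nr1d1 (0.63 ± 0.18) rose, as did Bhlhe41 (2.37-fold), and Npas2 and Clock fell (-0.54 and -0.24). Per2 and Nr1d1 overlapped between groups, and Nr1d1 lost its call in 4 of 18 alternatives tried. Without silica rat 4 the number of clock genes called higher was 5. The labels give no hour of tissue collection.

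Among 10 tested genes of the glucocorticoid response 3 fell and 0 rose: the receptor gene Nr3c1 and the steroid-induced genes Tsc22d3 and Fkbp5. Fkbp5 was at 33.5, 29.2, 31.2, 38.1 and 36.1 CPM against 90.9, 36.7, 45.6, 66.5 and 50.1 CPM (log2 -0.80 ± 0.27, adjusted p = 0.044). The air rats spread widely and air rat 2 fell inside the silica range. Zbtb16 was at 19.7 to 273 CPM in air and 26.1 to 107 CPM with silica (log2 -1.46 ± 0.55, adjusted p = 0.071). Without silica rat 2, 0 of the 10 genes were called lower.

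Cyp1a1, the xenobiotic oxidase induced through the aryl hydrocarbon receptor, fell from 53.5 ± 19.1 to 27.3 ± 11.4 CPM (log2 -0.95 ± 0.22, adjusted p = 0.0036), with 1 silica rat at 41.3 CPM inside the air range of 38.1 to 86.8 CPM. It was the only one of 7 tested genes of that pathway to pass, and 2 were lower without air rat 2 or silica rat 2. Among ion and water transport genes, 2 rose, Aqp3 among them (2.83-fold), and Aqp1, the sodium channel subunit Scnn1a, Slc12a2 and Kcnmb2 fell. The remaining lists held calls in both directions: eicosanoid genes 3 higher and 1 lower of 13, arginine metabolism 3 and 2 of 9, scavenger receptors 2 and 2 of 11, mast cell and eosinophil markers 1 and 1 of 3, and adipocyte markers 1 and 1 of 3. Without air rat 3, 0 eicosanoid genes were called higher, and without air rat 4, 0 adipocyte markers. Scavenger receptor rises numbered 1 without air rat 1, air rat 5 or silica rat 1, and falls 1 without air rat 2 or silica rat 2.

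**Figure D4:**
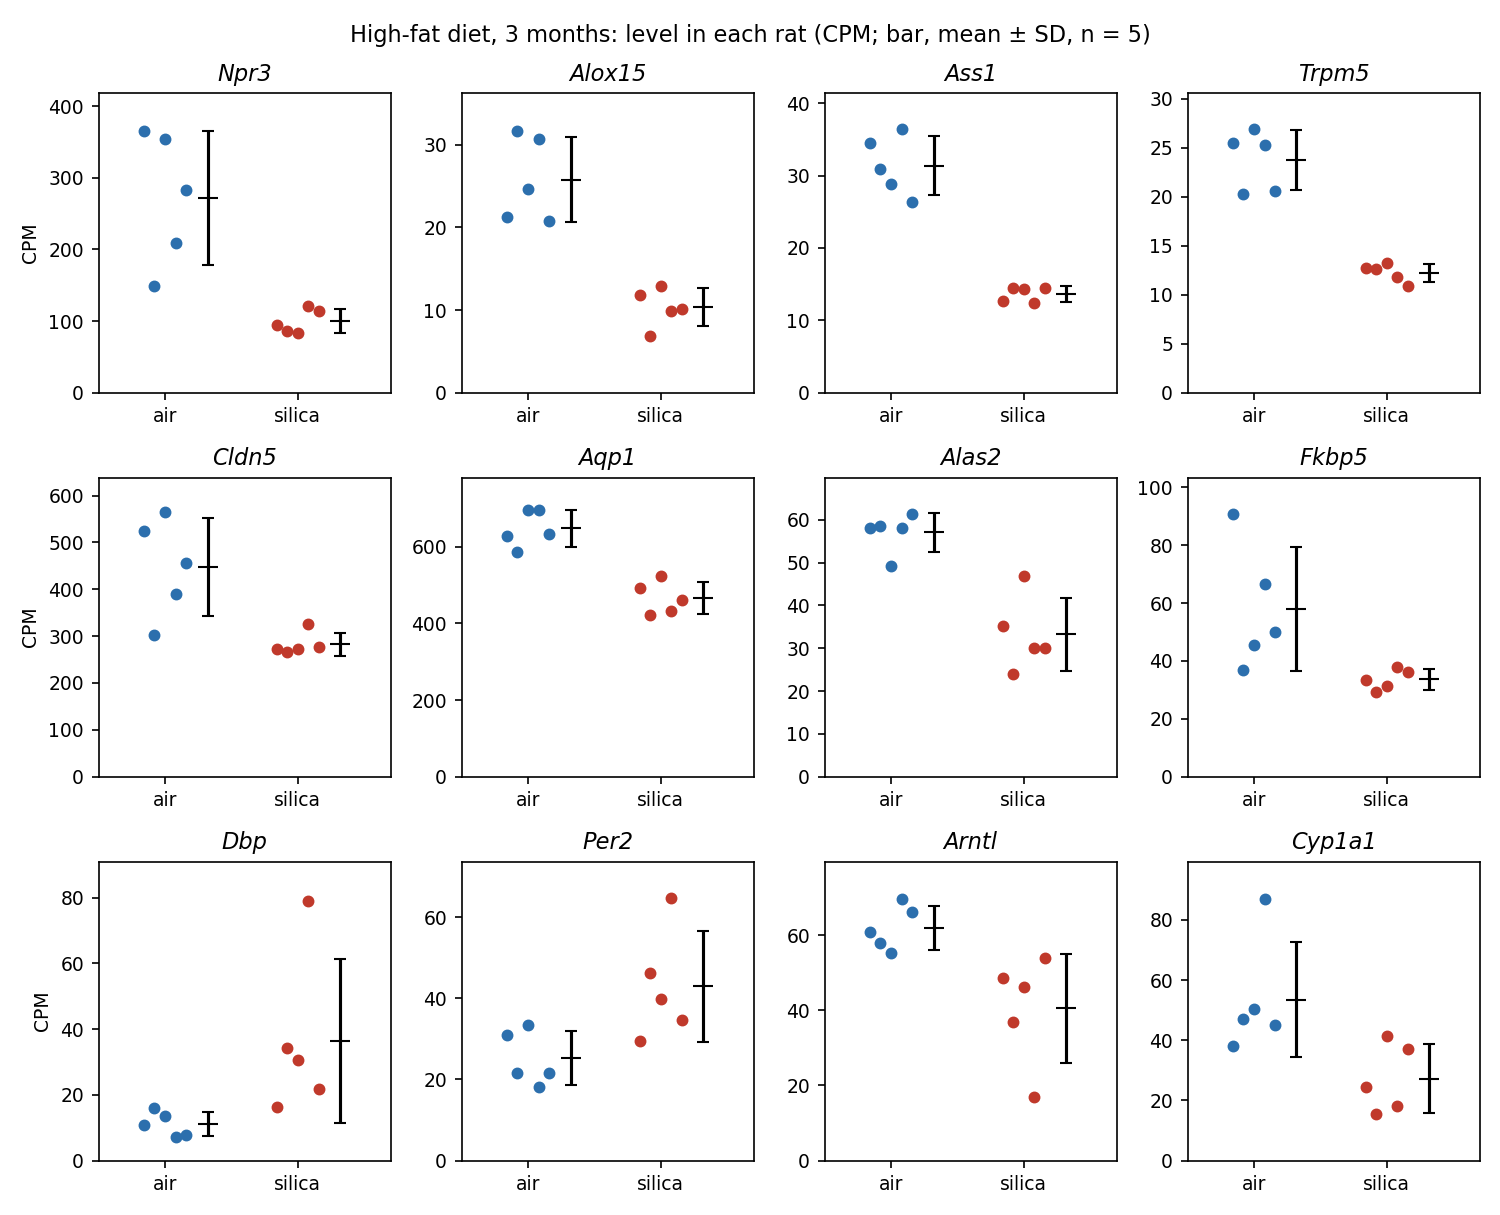
Each panel shows 1 gene, with CPM on a linear axis from 0, a point for each of the 5 air rats (blue) and 5 silica rats (red), and a black bar for mean ± SD. Dbp and Per2 are the 2 genes that were higher with silica, the other 10 were lower, and Cldn5, Fkbp5, Per2 and Cyp1a1 overlap between the groups.

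The silica rats differed from each other over the called genes, and so did the air rats. Over the 1406 genes called higher, silica rat 1 was the highest of the 5 for 796 genes and rat 3 the lowest for 545. The median log2 level of these genes over the air mean was 0.63 in rat 1, 0.45 in rat 2, 0.39 in rat 3, 0.51 in rat 4 and 0.49 in rat 5. For the 1247 genes called lower it was -0.33, -0.32, -0.21, -0.31 and -0.30, so silica rat 3 was nearest to air in both directions. Among the air rats, rat 2 was the highest for 536 of the genes called higher and the lowest for 569 of those called lower. The same median in air rat 2 was 0.07 for genes called higher and -0.07 for genes called lower. Whether the silica rats differed in their response was not tested. Genes called higher made up 14.9% to 18.3% of the CPM of silica rats and 10.7% to 11.4% in air rats, and genes called lower 19.8% to 21.8% against 23.7% to 26.0%. These shares describe genes chosen for their difference and carry no test.

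The same contrast on the regular diet, in other rats, pointed the same way. Silica against air there changed 1556 genes upward (10.2%) and 1005 downward (6.60%). Of the 1406 genes that rose on the high-fat diet, 1372 had a fold change above 0 on the regular diet and 981 were called there. Of the 1247 that fell, 1181 were below 0 and 523 were called, and 1 gene was called in opposite directions. The difference between both silica effects (high-fat minus regular diet) was called for 0 genes (0%) by edgeR, with 990 genes at an unadjusted p below 0.05 and a smallest adjusted p of 0.49. DESeq2 called 1 gene, Mmp12, at an adjusted p of 0.012. Mmp12 rose by 4.48 ± 0.19 on the high-fat and 3.11 ± 0.17 on the regular diet, a difference of 1.37 (edgeR, unadjusted p = 3.1e-04). Its silica level was similar, 49.3 CPM and 51.0 CPM, and its air level was 2.15 CPM on the high-fat and 5.82 CPM on the regular diet.

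Other genes with the smallest unadjusted p for that difference were Cry2 (0.50), Scn4a (1.52) and Lpar3 (0.45), with a more positive silica effect on the high-fat diet, and Ddx21 (-0.43), Pxdc1 (-0.42), Npr3 (-1.10), Sla2 (-0.99) and Irs3 (-0.59), with a more negative one. None passed after adjustment. Npr3, for instance, fell by 1.45 on the high-fat diet and stood at -0.35 on the regular diet. Counts of called members differed for some lists: red cell and platelet genes had 7 falls on the high-fat and 0 on the regular diet, clock genes 11 and 5 calls, and cholesterol synthesis 9 and 4 rises. The medians were -0.68 and -0.25 for the red cell list, 0.15 and -0.02 for the clock list and 0.24 and 0.24 for cholesterol synthesis, and 0 members of these 3 lists were called for the difference itself.

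By 9 months after exposure, silica on the high-fat diet had changed 4103 genes upward (26.0%) and 3902 downward (24.8%), of 15759 tested in a fit of all 8 groups of both times. Of the 1406 genes higher at 3 months, 1295 were also called higher at 9 months, and 1107 of the 1247 lower genes were again called lower. Time, age of the rats and count table change together, and the ribosomal RNA share at 9 months was 4.62% to 7.19% in air and 7.29% to 7.85% with silica. The silica effect differed between 9 and 3 months for 1032 genes more positive at 9 months (6.55%) and 649 more negative (4.12%). Without silica rat 3 of the 3-month group the total of 1681 became 1115, and a fit that held the ribosomal RNA share constant gave 1572.

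Some silica effects were larger later. The effect on Spp1 was greater at 9 months by 3.67, on Retnla by 3.25, on Chia by 3.12, on C4b by 1.85 and on Slc26a4 by 1.59 on the log2 scale. Esr1, the oestrogen receptor gene, had no silica effect to speak of at 3 months (0.12) and the difference with the smallest p in time (3.49, adjusted p = 1.9e-11). Other strongly time-dependent genes with more positive effects were Col16a1 (1.27), Tmtc1 (0.89), Ncf1 (1.45), Lhfpl2 (1.19) and Pcdh9 (1.19). Cd177 went the other way (-1.32), as did the matrix and vessel-wall genes Col3a1 (-0.58), Ltbp1 (-0.75), Aoc3 (-0.64), Adamts17 (-1.08), Slit2 (-0.70) and Mamdc2 (-0.88), together with Slc7a10 (-0.86) and Lpar3 (-0.79). Cxcl6, Lcn2, Ccl2 and Mmp12 showed no called difference in time (-0.26, -0.81, 1.122 and 1.66, adjusted p = 0.83, 0.13, 0.13 and 0.11). Of 24 matrix genes 12 had a more negative effect at 9 months and 1 a more positive one, and of 25 lysosome genes 18 had a more positive one.

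**Figure D5:**
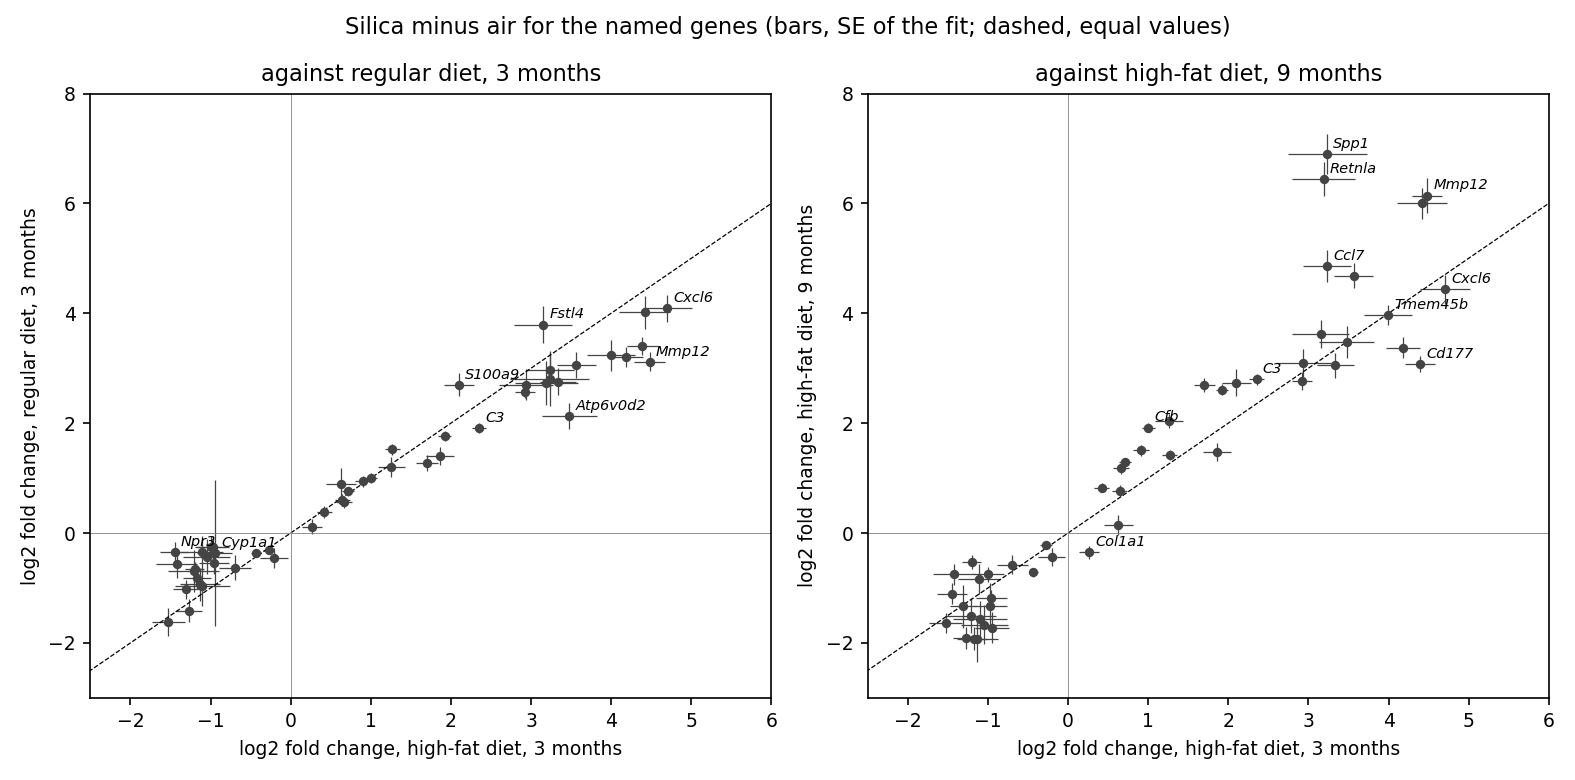
Each point is 1 of 50 named genes with more than 3 counts in each group, placed by its log2 fold change (silica minus air) on the high-fat diet at 3 months on the horizontal axis and by that on the regular diet at 3 months (left) or the high-fat diet at 9 months (right) on the vertical axis. Bars are the standard errors of the fits and the dashed line marks equal values. On the left Mmp12 and Atp6v0d2 lie below the line and Npr3 above it. None of them was a called difference by edgeR, and DESeq2 called Mmp12 alone. On the right Spp1 and Retnla lie 3.67 and 3.25 above the line.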

How the data were processed

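Lungs of 10 rats were compared by diet, exposure and time as labelled. The values are raw read counts per gene as deposited by the authors. Per the submitters' processing notes the tools included HTSeq 0.6.1, TopHat2 2.0.9 with Bowtie2 2.2.9, Trimmomatic 0.35, SAMtools 0.1.19 and bcl2fastq 2.19, with build Rnor_6.0; the strand setting of the counting is not given in the sources used here, so overlapping antisense genes may share reads.

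Genes were filtered with filterByExpr (15234 of 30045 kept), scaled with TMM and tested with edgeR 4.0.16 (glmQLFit and glmQLFTest, R 4.3.3) in 1 fit of the 4 groups at 3 months. Time was compared in a fit of 8 groups over shared symbols. P-values were Benjamini-Hochberg adjusted over all genes, with a threshold of 0.05. The scripts were tested on simulated data. DESeq2 1.42.0, limma 3.58.1 (voom), other scaling, filters, covariates and left-out rats were alternatives.

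Members and lists were chosen with earlier results of these data known. Named genes were the 15 largest rises and falls with a mean log2 CPM of at least 1, a fixed panel, in each list the 8 members with the smallest p and those that missed the threshold or ran against the list, and the 8 smallest p in each direction for diet and time. No fold is given where a group holds 3 counts or fewer. Some members are not reported here.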

Additional observations from a re-analysis of the deposited data

Results flagged for a closer look

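The level in each rat was checked for 51 named genes in both groups, 102 groups of 5 rats in all, for 1 rat far from the other 4. There were 8 such groups, from 4 different rats, where chance gives about 1 in 20 groups. Silica rat 1 was far above the others for Slc26a4 (122.532 CPM) and Sod2 (287.587 CPM). Silica rat 4 stood apart for Fam222a (8.39602 CPM) and Clspn (3.75141 CPM). Air rat 4 stood apart for Slc26a4 (6.5452 CPM), Cd177 (2.73985 CPM) and Cyp1a1 (86.762 CPM), and air rat 1 for Lcn2 (4.21904 CPM).

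The silica effect on the high-fat diet differed between 9 and 3 months for 15 of the 51 genes, by the interaction term of the 8-group edgeR fit. On the log2 scale it was more positive at 9 months for Spp1 (3.66768), Retnla (3.24566), Slc26a4 (1.58674), Gpnmb (0.994965), Cfb (0.918814), Hmox1 (0.780563), Chi3l1 (0.690582), Ass1 (0.675307), Mki67 (0.598789), Cd74 (0.586859), Sftpd (0.525386), C3 (0.448217) and Scd (0.414035). It was more negative for Cd177 (-1.31601) and Col1a1 (-0.607449). Time, age of the rats and count table cannot be told apart here.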

How the results depend on the processing

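Over 8 alternatives in scaling, filter, tool, covariate and fit, the genes called numbered 2416 to 2897, with 1311 to 1540 higher and 1105 to 1362 lower. Leaving out 1 rat at a time gave 2127 to 2670 genes, 1136 to 1571 higher and 819 to 1222 lower. The total and the genes called lower were fewest without air rat 3, and those called higher were fewest without silica rat 1. Of the 2653 genes 2037 to 2638 kept their call and direction under each of these settings, and 0 changed sign. The difference between diets had 1 call with DESeq2 and 0 in each of the 19 fits that left out a rat. The difference in time numbered 1268 to 2359 over 6 alternatives and 1115 to 1908 with 1 rat left out, lowest without silica rat 3 at 3 months. Single genes were recomputed for 51 of those named, the panel and the largest rises and falls. None of these 51 reversed its direction, and Nr1d1, Rgs13, Gp6, Sptb and Pdk4 lost their call under at least 1 alternative, Gp6 and Sptb in the fit of all 8 groups (adjusted p = 0.21 and 0.29). Genes named only as list members were followed by the counts of their lists. Recomputed counts of list members stayed within 1.5 times in 1703 cases, grew past that in 47 and shrank past it in 50. In lists with 0 calls in a direction, leaving out a rat at times gave calls: 2 falls among T and NK cell genes and among CC chemokines without silica rat 5, and 1 fall of smooth muscle genes without air rat 5. No paired analysis was possible because the labels tie no rat of one group to a rat of another. Genes with few counts, such as Dlk1, were limited by depth.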
